A study of Mus musculus with 2 samples.

Results

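The miRNA genes of the Hox clusters, Mir196b, Mir196a-1, Mir196a-2, Mir615, Mir10a and Mir10b, were taken from the counted miRNA genes of embryonic mouse limb by their Ensembl identifiers, 6 of 1973 genes. The choice used gene name and genome position and no measured level. MicroRNA sequencing had been run on the short fraction (under 30 bases, per the labels) of total RNA from limbs of B6NCrl embryos at embryonic day 13.5, with both sexes pooled. The series holds this 1 group, with 2 biological replicates that were separate tissue samples carrying the same donor label, and no treatment or mutant. Differences between genes were therefore set against the spread of the 2 libraries, and no comparison between conditions was possible.

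Hox genes encode homeodomain transcription factors that give positional identity along the body axis and along the limb, and in mouse they lie in clusters in which paralogs keep the same order. The mir-196 genes lie beside the Hox9 and Hox10 paralogs and the mir-10 genes beside the Hox4 paralogs, while mir-615 lies within Hoxc5. A miRNA guides Argonaute proteins to messenger RNAs, mostly through its seed, bases 2 to 8 from the 5′ end, and miR-196 is known in mouse to direct cleavage of the Hoxb8 messenger.

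The mature sequences from the RefSeq miRNA table (GRCm38.p6), which held all 6 genes, are shown because they decide which reads can be told apart and which genes share a seed. The seed is in capitals. The 5′ arm of the 3 mir-196 genes and that of the mir-10 pair are given with both arms of mir-615.
miR-196b-5p: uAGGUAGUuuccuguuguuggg
miR-196a-5p: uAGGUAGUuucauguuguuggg
miR-10a-5p: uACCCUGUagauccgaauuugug
miR-10b-5p: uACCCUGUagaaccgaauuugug
miR-615-3p: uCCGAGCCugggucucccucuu
miR-615-5p: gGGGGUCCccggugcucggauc

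The 5′ arms of close members differed only outside the seed. Counted from the 5′ end, miR-196a-5p and miR-196b-5p differed by the single substitution A12C, with the miR-196a base first. The miR-10a-5p and miR-10b-5p sequences differed by the single substitution U12A, with the miR-10a base first. No other of the 1679 mature names in the table had a seed of any member arm, so the seed groups are Mir196b with Mir196a-1 and Mir196a-2, Mir10a with Mir10b, and Mir615 alone.

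The 3′ arms separate the genes further, and they are shown because the counts do not tell arms apart, so that reads of these arms enter the same totals.
miR-196b-3p: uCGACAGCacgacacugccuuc
miR-196a-1-3p: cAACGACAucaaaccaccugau
miR-196a-2-3p: uCGGCAACaagaaacugccuga
miR-10a-3p: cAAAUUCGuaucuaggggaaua
miR-10b-3p: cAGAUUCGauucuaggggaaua
The 5 sequences have 5 different seeds. The mir-10 3′ arms differed by A3G, U9A and A10U, counted from the 5′ end with the miR-10a-3p base first, and the first of these lies in the seed.

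The hairpins below show where a read could fall in 2 genes. Capitals mark the 5′ arm mature sequence.
Mir196a-1: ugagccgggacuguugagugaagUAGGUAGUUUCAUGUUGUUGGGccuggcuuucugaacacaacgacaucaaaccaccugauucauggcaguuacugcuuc
Mir196a-2: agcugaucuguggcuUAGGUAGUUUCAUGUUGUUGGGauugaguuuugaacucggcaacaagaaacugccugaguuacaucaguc
Mir196b: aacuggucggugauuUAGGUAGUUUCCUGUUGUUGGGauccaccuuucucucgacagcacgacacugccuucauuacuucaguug
Mir10a: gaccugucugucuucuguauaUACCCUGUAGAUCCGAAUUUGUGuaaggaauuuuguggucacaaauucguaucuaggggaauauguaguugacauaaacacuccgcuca
Mir10b: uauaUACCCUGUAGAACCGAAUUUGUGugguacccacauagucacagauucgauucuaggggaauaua
The longest stretch that Mir196a-1 and Mir196a-2 share is 22 bases, and it is exactly the whole mature miR-196a-5p. Mir10a and Mir10b share at most 15 bases. Mir196b shares at most 12 bases and Mir615 at most 14 with any other of the 2201 annotated hairpins searched. A read of the whole miR-196a-5p, or any part of it, maps to both mir-196a genes, and reads that map to several places entered no gene. The levels of Mir196a-1 and Mir196a-2 below therefore leave out whole miR-196a-5p reads that carry no further base of either hairpin. These levels are uncertain, and how many reads they lack was not tested.

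In the genome (mm10, the same build as GRCm38), the mir-196 genes stood at matching places in 3 clusters, on the strand of the Hox genes. Mir196b (ENSMUSG00000065443) is at chr6:52230081-52230165 on the minus strand of the Hoxa cluster, 2.343 kb downstream of the coding sequence of Hoxa10 and 3.976 kb upstream of that of Hoxa9. It lies wholly inside exons of 2 non-coding Hoxa9 transcripts (Hoxa9-204 and Hoxa9-205) and in an intron of another, and no coding sequence or UTR is annotated there. Mir196a-2 (ENSMUSG00000065488) is at chr15:102973350-102973434 on the plus strand of the Hoxc cluster, 2.277 kb downstream of the Hoxc10 and 8.218 kb upstream of the Hoxc9 coding sequence, in an intron of the long non-coding transcript Hoxc5-202. Mir196a-1 (ENSMUSG00000065546) is at chr11:96265164-96265265 on the plus strand of the Hoxb cluster, in no annotated transcript of another gene. Its nearest coding sequences are Hoxb13, 68.9 kb upstream, and Hoxb9, 6.276 kb downstream, since the Hoxb cluster has no Hoxb10.

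The mir-10 genes lie just upstream of the Hox4 paralogs. Mir10a (ENSMUSG00000065519), at chr11:96317165-96317274 on the plus strand of the Hoxb cluster, is intergenic, 12.03 kb downstream of the Hoxb5 and 1.495 kb upstream of the Hoxb4 coding sequence. Mir10b (ENSMUSG00000065500), at chr2:74726070-74726137 on the plus strand of the Hoxd cluster, is 1.141 kb upstream of the Hoxd4 coding sequence, within introns of coding transcripts of Hoxd4 and Hoxd3. Mir615 (ENSMUSG00000076010), at chr15:103014910-103015001 on the plus strand, is in the intron of the coding Hoxc5 transcript, 3.871 kb downstream of the Hoxc6 coding sequence. Mir196a-1 and Mir10a share the Hoxb cluster, 51.9 kb apart, and Mir196a-2 and Mir615 share the Hoxc cluster, 41.5 kb apart. The annotation holds 7 miRNA genes among the 38 Hox genes analysed, and the seventh, Gm44463 in the Hoxd cluster, was not analysed here.

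**Figure D1:**
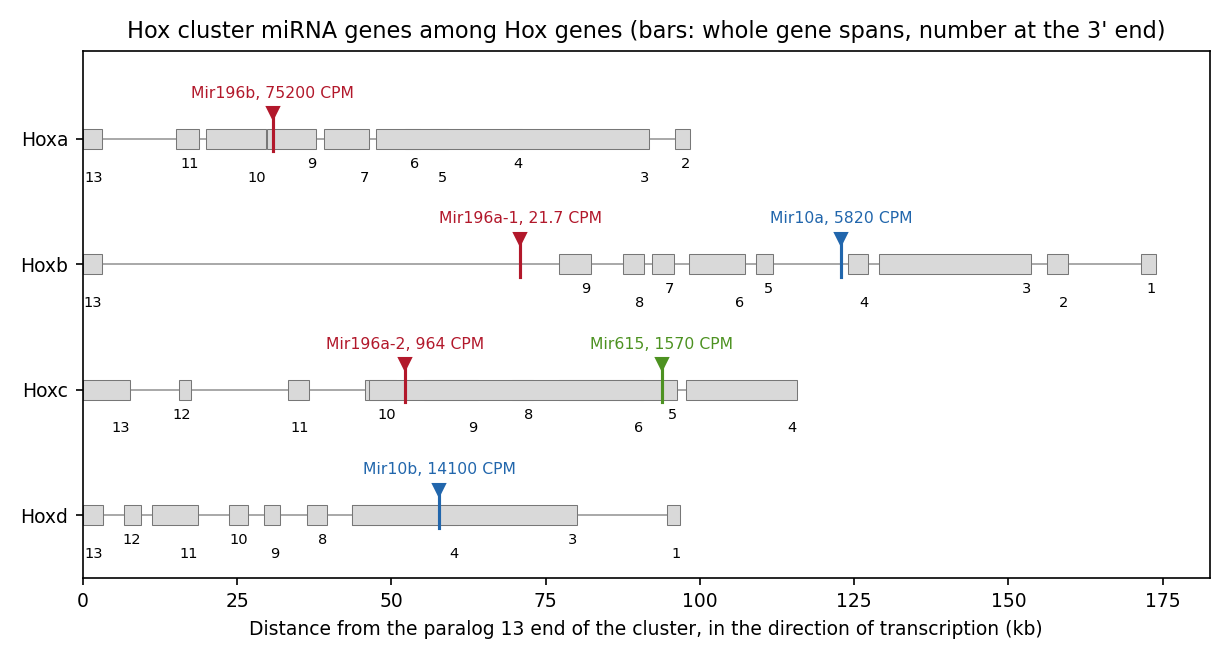
Map of the 4 Hox clusters, drawn from the paralog 13 end in the direction of transcription, with distance in kb on the x axis. Grey bars are whole gene spans with the paralog number at their 3′ end, and coloured markers are the 6 miRNA genes with their mean CPM. The mir-196 genes (red) lie before the 3′ end of paralog 9 and after that of paralog 10 (Hoxa, Hoxc) or 13 (Hoxb), Mir196b within the Hoxa9 span, the mir-10 genes (blue) upstream of the 3′ end of paralog 4, and Mir615 (green) near the end of Hoxc5.

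The libraries held 12407140 reads in replicate 1 and 12657170 in replicate 2, of which 5927321 (47.8%) and 6003632 (47.4%) were sense counts in miRNA genes. Levels are sense counts scaled to 1000000 such counts a library (CPM), means are given ± SD over the 2 libraries, and the 95% Wilson intervals of shares cover counting error only. Markers of limb tissue were present: the cartilage list (Mir140, Mir455) summed to 48690 and 48605 CPM and the muscle list of 4 genes to 3991 and 4205 CPM. In the muscle list, Mir206 alone had 3741 and 3940 CPM. Mir133b, Mir208b and Mir499 had 73.6 to 101 CPM, below neuronal Mir137 at 114 and 143 CPM, so the muscle sum rests on Mir206. The epithelial list of 4 genes summed to 18957 and 22070 CPM, the vessel list of 3 to 27255 and 26865 CPM, and the blood list of 3 to 443 and 445 CPM. Of the 6 counted neuronal markers, 4 were at 0, all 3 Mir124a genes among them, and the list summed to 116 and 146 CPM, nearly all from Mir137. A stretch of at least 22 bases in each counted Mir124a and Mir9 gene recurs in another hairpin, reads of it entered no gene, and their values of 0 do not show absence. Mir1a-1, Mir133a-1 and Mir133a-2, muscle genes outside the muscle list that have such a recurring stretch too, had at most 0.169 CPM. Liver Mir122 stood at 66.8 and 80.6 CPM and the list of 4 pluripotent cell markers at 127 and 120 CPM. In such mixed tissue, fewer cells that hold a miRNA and less of it per cell cannot be told apart.

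Mir196b was the member with by far the most counts, and by mean level it ranked first of all 1973 genes. It had 471754 counts in replicate 1 (79590 CPM) and 425576 in replicate 2 (70886 CPM), a mean of 75238 ± 6154 CPM (SD, n = 2). These were 7.96% (95% Wilson interval 7.94 to 7.98%) and 7.09% (7.07 to 7.11%) of all sense gene counts. Its rank was 1 in replicate 1 and 3 in replicate 2, so the first place depended on the library. The gene nearest to it in level was Mir335, with 73522 CPM in replicate 1 and 76572 CPM in replicate 2. Mir196b was above Mir335 in replicate 1 and below it in replicate 2, and the order of these genes is not resolved by the data. All ranks here also leave out multimapping reads, 30.8% and 29.5% of the reads. Of the counted genes, 871 share at least 22 bases with another hairpin and may lack such reads, by an amount not tested. Mir196b is not among them, so its first place holds only for reads that entered a gene and may not hold for Mir196b among all miRNAs.

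The other mir-196 genes were far below it. Mir196a-2 had 6229 counts (1051 CPM) in replicate 1 and 5270 counts (878 CPM) in replicate 2, a mean of 964 ± 122 CPM and rank 100. Mir196a-1 had 134 counts (22.6 CPM) in replicate 1 and 125 counts (20.8 CPM) in replicate 2, a mean of 21.7 ± 1.26 CPM and rank 255. Mir196b exceeded Mir196a-2 by 6.29 ± 0.07 on the log2 scale of counts, or 78.2-fold, and Mir196a-2 exceeded Mir196a-1 by 5.46 ± 0.10, or 44.1-fold (SD, n = 2). The 3 genes had the same order in both libraries, with gaps well beyond the spread between libraries. Both ratios involve a mir-196a gene, whose counts lack the reads that the 2 hairpins share. The gap within the pair is thus one between the reads that reach beyond the shared 22 bases, 3′ arm reads included. The pair together held 0.0986 ± 0.0124% of sense gene counts, against 7.52 ± 0.62% for Mir196b.

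The mir-10 genes were closer to each other. Mir10b had 82606 counts (13936 CPM) in replicate 1 and 85643 counts (14265 CPM) in replicate 2, a mean of 14101 ± 232 CPM and rank 18. Mir10a had 36153 counts (6099 CPM) in replicate 1 and 33315 counts (5549 CPM) in replicate 2, a mean of 5824 ± 389 CPM and rank 35. Mir10b was above Mir10a in both libraries and their values did not overlap, with a log2 ratio of 1.28 ± 0.12, or 2.42-fold (2.28-fold in replicate 1 and 2.57-fold in replicate 2). The pair together took 1.99 ± 0.016% of sense gene counts, a sum that moved less between libraries than Mir10a did. Mir196b exceeded Mir10b by 2.41 ± 0.14 on the log2 scale, or 5.33-fold.

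Mir615, the member with a seed of its own, had 9571 counts (1615 CPM) in replicate 1 and 9195 counts (1532 CPM) in replicate 2, a mean of 1573 ± 58.8 CPM and rank 81. Its level was between those of Mir10a, which exceeded it by 1.89 ± 0.04 on the log2 scale, and Mir196a-2, which it exceeded by 0.71 ± 0.13, or 1.64-fold. The values of Mir615 and Mir196a-2 did not overlap, and this was the smallest gap between neighbours in the order of the members. The counts of Mir196a-2 lack whole miR-196a-5p reads, so whether its level is truly below that of Mir615 is not resolved. Mir615 lies in the same cluster as Mir196a-2 and both are within the span of Hoxc5.

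**Figure D2:**
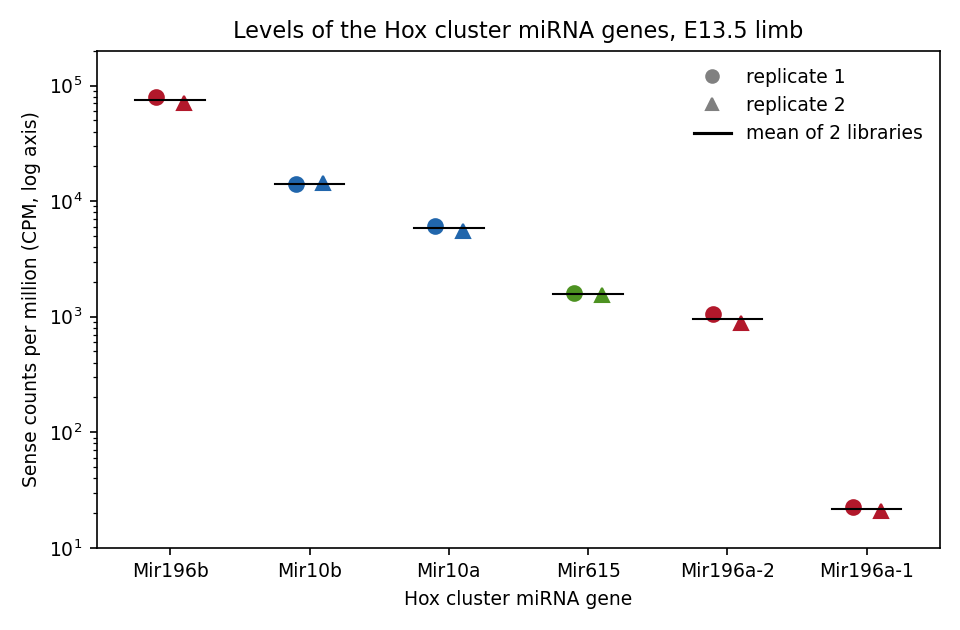
Level of each Hox cluster miRNA gene in CPM on a log axis. Circles are replicate 1, triangles replicate 2 and bars the mean of the 2 libraries, in red for mir-196, blue for mir-10 and green for Mir615 genes. The order Mir196b, Mir10b, Mir10a, Mir615, Mir196a-2, Mir196a-1 was the same in both libraries, from 75238 down to 21.7 CPM. The mir-196a genes lack reads of the stretch they share, so their places are uncertain.

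The order of the 6 genes, Mir196b, Mir10b, Mir10a, Mir615, Mir196a-2 and Mir196a-1, was the same in both libraries, and no neighbours in it overlapped. It is an order of counted reads, and the places of the mir-196a genes in it are uncertain because their counts lack the shared reads. With 2 values against 2, an exact two-sided permutation test cannot go below p = 0.333, nor a paired one below 0.5, so no p is given for these gaps. Each read is a whole short RNA, so counts were not divided by hairpin length, and how readily each sequence entered a library was not measured.

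By cluster, the members' counts were unevenly placed. The Hoxa cluster, through Mir196b alone, held 77.0 ± 1.18% of the members' counts, and the Hoxd cluster, through Mir10b alone, held 14.5 ± 1.20%. The Hoxb pair held 5.98% and the Hoxc pair 2.60% in the mean of the libraries. Each pair includes a mir-196a gene whose counts lack the shared miR-196a-5p reads. All these shares are therefore of counted reads only, and how far the missing reads would change them was not tested. Within the Hoxb cluster, Mir10a exceeded Mir196a-1 by 8.06 ± 0.01 on the log2 scale, or 267-fold, the widest gap between members of 1 cluster, with the limit on Mir196a-1 given above.

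All 6 genes together held 10.2% of sense gene counts in replicate 1 and 9.31% in replicate 2, a mean of 9.77 ± 0.65%. Reads that entered no gene, whole miR-196a-5p reads among them, are left out of this share and of those below. Without Mir196b the other 5 held 2.27% and 2.22%, a mean of 2.25 ± 0.03%. The difference between the libraries in the summed share was thus mostly that of Mir196b.

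**Figure D3:**
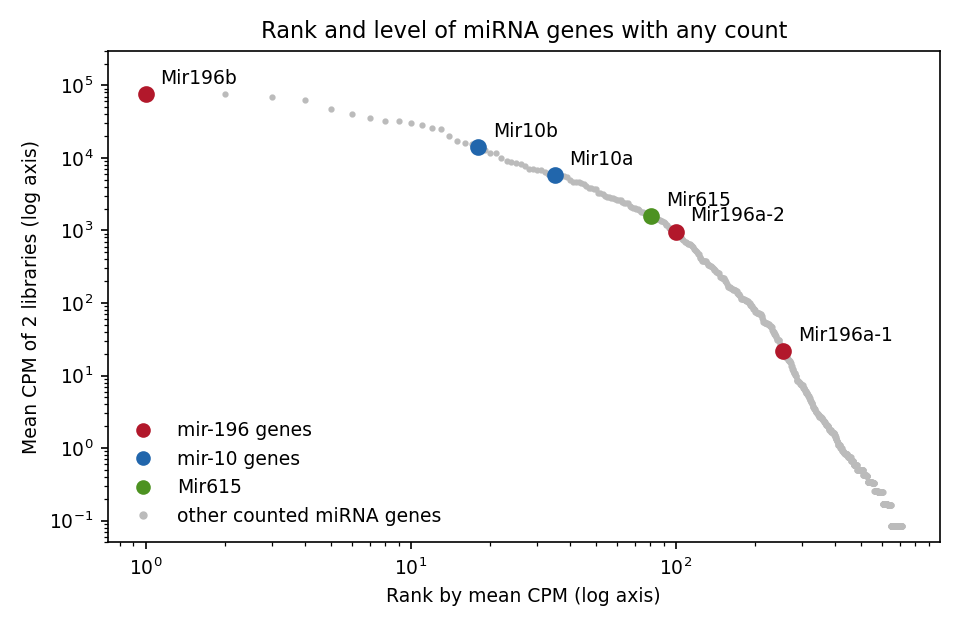
Mean level of every miRNA gene with a count against its rank, both on log axes. Large coloured points are the 6 Hox cluster genes (red mir-196, blue mir-10, green Mir615) and grey points all other genes. The members are spread from rank 1 to rank 255 of 1973, by counts that leave out multimapping reads.

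For each member, the gene outside the set with the most similar level was found by the Euclidean distance of log2(CPM + 1) over the 2 libraries. Besides Mir335 for Mir196b (distance 0.16), these were Mir487b for Mir10b (0.18), Mir369 for Mir10a (0.060), Mir16-1 for Mir615 (0.048), Mir148a for Mir196a-2 (0.14) and Mir181b-1 for Mir196a-1 (0.046). The order of Mir10a and Mir369, and that of Mir196a-2 and Mir148a, turned between the libraries. With 2 libraries this measure is one of level only and not of a shared pattern. These levels leave out multimapping reads, so the matches of the mir-196a genes carry the limit given above.

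Reads on the opposite strand were nearly absent at the members. Mir10a had 1 antisense count in each library and the other 5 genes had 0 in both, each below the 3 counts that a count of 0 allows. That limit is 0.506 CPM in replicate 1 and 0.4997 CPM in replicate 2.

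The 2 libraries were compared gene by gene with a two-sided exact binomial test on sense counts, Benjamini-Hochberg adjusted over the 410 genes with at least 10 counts in a library. A gene was called with an adjusted p under 0.05 and an absolute log2 ratio of at least 1. Of all genes tested, 3.41% were called (14 genes, 4 higher and 10 lower in replicate 2), and of the members 0 of 6. On the adjusted p alone, 43.7% of all genes passed, and 5 of 6 members, so the counting error alone understated the spread of the libraries. This test compares 2 libraries of 1 group and not conditions.

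The members differed little between libraries. Mir196a-2 had the largest difference, a log2 ratio of replicate 2 over replicate 1 of −0.26 (adjusted p = 4.21e-21, exact binomial test). Mir196b had −0.17, with an adjusted p too small for the computer to hold, and Mir10a −0.14 (adjusted p = 1.35e-34, exact binomial test). Mir615 had −0.076 (adjusted p = 0.000987) and Mir196a-1 −0.12 (adjusted p = 0.687, 134 against 125 counts), by the same exact test. Mir10b alone was higher in replicate 2, by 0.034 (adjusted p = 7.39e-06, exact binomial test). Thus 5 of 6 members were lower in replicate 2, against 217 of all 410 genes tested. The median log2 ratio was −0.13 over the members and −0.018 over all genes tested. Among the 190 genes with at least 100 CPM the median absolute log2 ratio was 0.125 and the highest 0.73, and all 5 members in that range were within 0.26 of 0. The biological coefficient of variation over 372 genes was 0.111 (edgeR common dispersion, an estimate from 2 libraries).

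**Figure D4:**
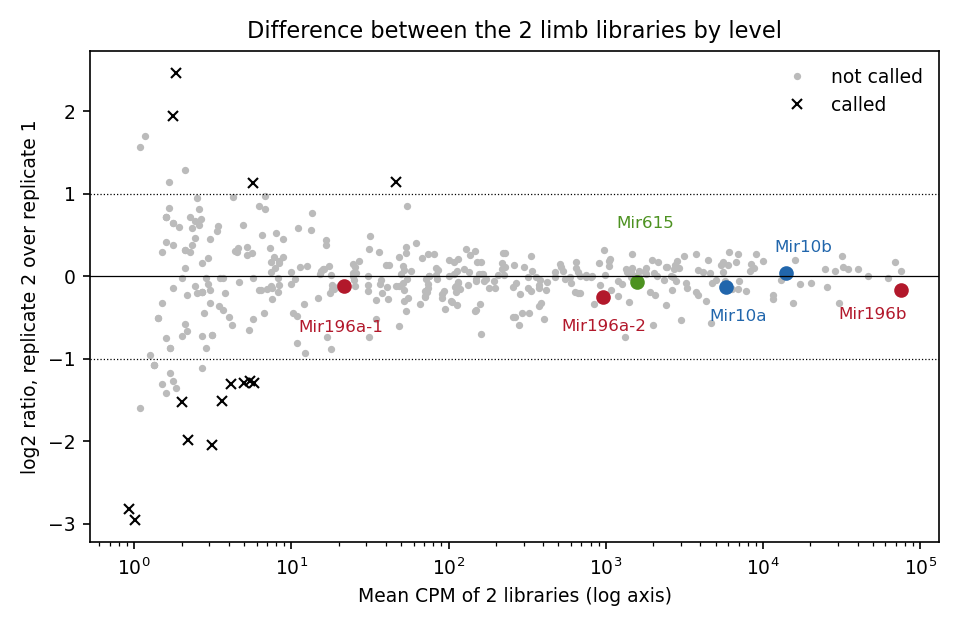
Log2 ratio of replicate 2 over replicate 1 for the 410 genes tested, against mean level on a log axis, with dotted lines at the minimum ratio of 1 in either direction. Crosses are the 14 called genes, grey points the others, and large points the Hox cluster members (red mir-196, blue mir-10, green Mir615). The members lie between −0.26 and 0.034, and most called genes have low levels.

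Genes related to mir-10 in sequence but outside the Hox clusters were set beside the members. The mature sequences of the nearest show how the seed differs, and it is in capitals.
miR-10a-5p: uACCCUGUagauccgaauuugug
miR-100-5p: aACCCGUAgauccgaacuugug
miR-99a-5p: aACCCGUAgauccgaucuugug
miR-99b-5p: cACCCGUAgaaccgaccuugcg
miR-125b-5p: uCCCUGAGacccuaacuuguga
The miR-10a-5p sequence was 3 edits (substitutions, insertions or deletions) from miR-100-5p, 4 from miR-99a-5p, 6 from miR-99b-5p and 6 from miR-125b-5p. The seeds of the miR-99 and miR-100 sequences were identical to each other and differed from that of the mir-10 pair.

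Within this wider family, Mir99a had more counts than either mir-10 gene. Mir10b averaged 14101 ± 232 CPM and Mir10a 5824 ± 389 CPM, against 62771 ± 673 CPM for Mir99a, 25670 ± 1658 CPM for Mir99b and 17236 ± 833 CPM for Mir100 (SD, n = 2). Mir10b was below these 3 genes in both libraries. Mir125a averaged 3872 ± 426 CPM, Mir125b-1 1441 ± 7.94 CPM and Mir125b-2 515 ± 26.8 CPM, all below Mir10a in both libraries. The 5′ arms of Mir125b-1 and Mir125b-2 are identical, so their counts carry the same limit as the mir-196a pair. The mir-10 pair together held 1.99% of sense gene counts, against 11.2% for the 6 related genes.

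The levels of Hox messengers were not measured in these libraries, so only their sequences were searched. The letters that pair with bases 2 to 8 of each 5′ arm, or of the miR-615 3′ arm, were sought in the longest annotated 3′ UTR of each gene (GENCODE, GRCm38), on the sense strand. The motif was ACTACCT for mir-196, ACAGGGT for mir-10 and GGCTCGG for miR-615-3p. No end of one motif is the start of another, so matches of different motifs cannot overlap. A match is a description of the sequence and not a measured site.

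The mir-196 motif was in the 3′ UTR of 8 of 38 Hox genes (21.1%), against 6.10% of the 20898 other genes and 3.82% in UTRs of like length. These were Hoxa4, Hoxa5, Hoxa7, Hoxa9, Hoxb1, Hoxb6, Hoxb7 and Hoxc8. All 8 are among the 26 genes of paralogs 1 to 9, and 0 of the 12 genes of paralogs 10 to 13 held it. This boundary falls just after Hoxa9, the highest paralog with a match, so the split describes these matches and is no test. Hoxa7 had 4 matches and Hoxc8 had 2. The reverse complement of the motif was in 1 Hox UTR and in 5.69% of the other genes.

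The mir-10 motif was in 3 of 38 Hox UTRs (7.89%; Hoxa3, Hoxb3 and Hoxd1), against 12.6% of other genes and 9.35% at like length. The miR-615-3p motif was in 1 of 38 (2.63%; Hoxb4), against 2.31% of other genes and 1.63% at like length. The mir-10 share was below that of other genes for these 7 letters, but with the motif followed by A it was above it, 7.89% (3 of 38 genes) against 2.08%. The setting with the A was not planned beforehand and rests on 3 genes. No share at like length was computed for it, so the direction for mir-10 is not resolved. The miR-615-3p share rests on 1 gene. Matches of both motifs lay only in paralogs 1 to 9, which make up 26 of the 38 genes. They were in 3 (mir-10) and 1 (miR-615-3p) of those 26 genes, and in 0 of the 12 genes of paralogs 10 to 13. So few matches cannot show a difference between the paralog groups. The reverse complements were each in 2 Hox UTRs, and in 14.1% of other genes for mir-10 and 2.69% for miR-615-3p.

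**Figure D5:**
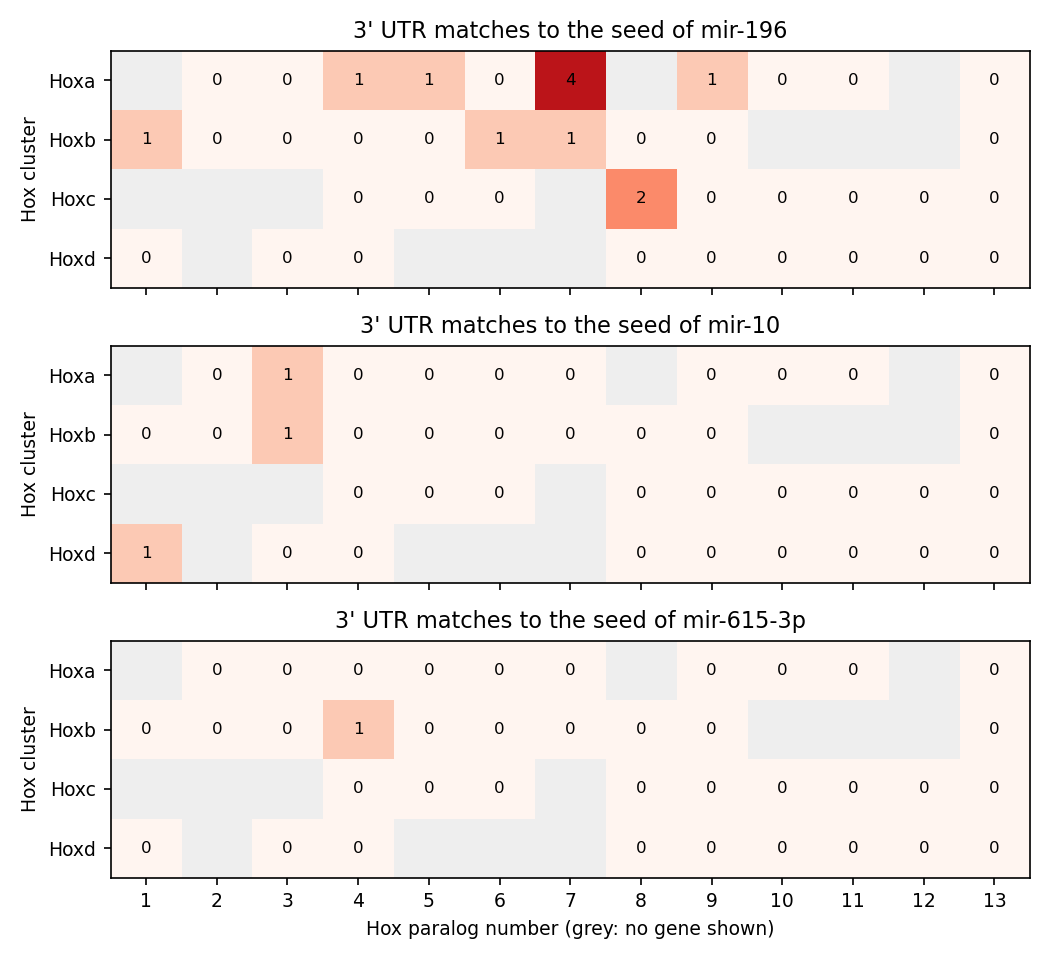
Number of matches to the seed of mir-196, mir-10 and miR-615-3p in the longest 3′ UTR of each Hox gene, by cluster (rows) and paralog number (columns). Darker red means more matches, and grey cells show no gene. Matches to mir-196 are in 8 genes of paralogs 1 to 9, with 4 in Hoxa7. Matches to the other motifs, also in paralogs 1 to 9, are too few to compare paralog groups.

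Selected windows, with the motif in capitals, were chosen after the matches were seen. Among windows that hold a motif, they are the mir-196 windows with 14 or more Watson-Crick pairs to a mir-196 miRNA. The best paired motif window for mir-10 and the only motif window for miR-615-3p are added. Some Hox windows without the motif paired at more bases, with 15 pairs to miR-10b-5p in Hoxa5 and 14 to miR-615-3p in Hoxb13. Each is read 5′ to 3′ on the strand of the gene. The miRNA was laid along the whole window without gaps, and not every base pairs.
Hoxa7, chr6:52215210-52215231 (minus): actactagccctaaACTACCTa
Hoxa9, chr6:52223900-52223921 (minus): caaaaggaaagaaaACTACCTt
Hoxb7, chr11:96289784-96289805 (plus): ctgtaaaaaaatatACTACCTa
Hoxd1, chr2:74764930-74764952 (plus): tagcggaacaaatccACAGGGTa
Hoxb4, chr11:96320843-96320864 (plus): aacaaatgaggccaGGCTCGGc
The Hoxa9 window had 15 Watson-Crick pairs of 22 with miR-196b-5p and 14 with miR-196a-5p. The Hoxa7 window and the Hoxb7 window had 14 with each. Hox windows without the motif reached as many or more, among them Hoxb4 with 15 to miR-196b-5p and Hoxd8 with 15 to miR-196a-5p. Over all 3′ UTRs the median of the best window was 13 pairs with either miRNA. The Hoxd1 window had 13 pairs of 23 with miR-10a-5p and 12 with miR-10b-5p, and the Hoxb4 window 13 of 22 with miR-615-3p.

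When whole miRNAs were laid without gaps along every 3′ UTR, 1 window stood apart. The Hoxb8 3′ UTR pairs with miR-196a-5p at 21 of 22 bases and with miR-196b-5p at 20 of 22, with a G:U pair at position 5 of the miRNA in each. Capitals mark Watson-Crick pairs.
Hoxb8 with miR-196a-5p, chr11:96284888-96284909 (plus): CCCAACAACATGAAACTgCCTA
Hoxb8 with miR-196b-5p, the same window: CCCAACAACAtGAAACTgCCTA
Of 20915 UTRs long enough, only Hoxb8 had 18 or more pairs with miR-196a-5p, where the median of the best window was 13 pairs. With miR-196b-5p, 4 UTRs had 18 or more and Hoxb8 had the most. Because of the G:U pair the window lacks the ACTACCT motif, and Hoxb8 is not among the 8 genes above. No Hox UTR reached 18 pairs with miR-10a-5p, miR-10b-5p or miR-615-3p.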

How the data were processed

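Short RNA of 2 libraries of 1 group was analysed. The values are whole-number counts per miRNA gene as deposited by the authors, with columns for either strand, sense and antisense after 4 lines for reads in no gene. The file has no header, so the column meanings were taken from the layout, where either strand is the sum of sense and antisense in each of 1973 genes. Per the files deposited with them, the counts use mm10 and GENCODE M4. No source used here gives the aligner, the counting program or the trimming. Arms of a hairpin are not separated, and multimapping reads (30.8% and 29.5% of reads) entered no gene. Unmapped reads were 17.2% and 18.6%, reads in no gene 4.24% and 4.48%, and ambiguous reads 0. These stayed out of library sizes.

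CPM was computed here over summed sense gene counts. Symbols and positions came from GENCODE M21 (GRCm38), with 1894 of 1973 identifiers matched, and mature and hairpin sequences from RefSeq. Mature names were matched for 6 of 6 genes and hairpins for 5, and no Mir615 hairpin is printed. Copies outside annotated transcripts were not searched. Ratios between genes used counts plus 0.5. A 3′ UTR is the longest per gene, and like-length shares used UTRs within 20% of each Hox UTR's length.

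Libraries were compared with an exact binomial test (scipy 1.17.1, Python 3.11.15), and dispersion was estimated with edgeR 4.0.16 with TMM factors in R 4.3.3. DESeq2 1.42.0 size factors were an alternative. Both steps were tested on simulated data. For the binomial test these data held counting error only, so its false calls under the spread of the real libraries were not tested. The libraries differed beyond counting noise (chi-square 39272.7 on 409 degrees of freedom) and were kept as 2 replicates. Nothing in the labels places them in separate litters, so SDs measure only the spread between these samples, which may be technical. The binomial p-values allow for counting error only and not for that spread. No molecular identifiers are recorded, so intervals cover counting error only. The members, lists and rules were chosen with earlier results of these data known. The named genes are the members, related hairpins, genes of nearest level, and neighbouring or host Hox genes. A Hox gene is not reported here and was left out of every step on Hox genes. Hox genes beyond those were named by motif, after their matches were seen.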

Additional observations from a re-analysis of the deposited data

How the results depend on the processing

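The order of the members' levels and the 5 log2 ratios between members kept their direction under every setting tried. Scaling a library to another total could not change that order, and no setting brought back the reads that the mir-196a genes lack. Leaving out 1 library gave 9.31 to 10.2% for the members' share, 2.31 to 2.51 for Mir196b over Mir10b, 1.19 to 1.36 for Mir10b over Mir10a, 0.62 to 0.80 for Mir615 over Mir196a-2, 8.05 to 8.07 for Mir10a over Mir196a-1 and 5.39 to 5.53 for Mir196a-2 over Mir196a-1. The share fell to 4.65% when scaled to all reads, and to 2.25% without Mir196b, a setting chosen after the data were seen. It was 9.46% with reads of either strand. Without the genes outside the members that share 22 or more bases it was 10.03%, with the mir-196a genes kept. The 14 genes called between libraries became 1 with a minimum of 50 counts and 179 with no minimum ratio, of which 5 were members. Over 36 alternatives, the members' ratios between libraries did not change sign. Those that changed only the minimum count or the minimum ratio left each ratio as it was. Only the settings for library size and strand could thus have changed a sign. The rank of Mir196b was 1 or 3 by library. The Hox UTRs with a match followed by A were 5 of 38 for mir-196 (13.2%, against 1.25% of other genes), 3 for mir-10 (7.89%, against 2.08%) and 0 for miR-615-3p (against 0.536%), so the mir-10 share, below that of other genes without the A, was above it. The setting with the A, like the reverse complement, was not planned beforehand, and no like-length share was computed for it. Why the mir-10 share turned was not tested. No paired analysis was possible because the series has 1 group. Calls between libraries cannot be made with 1 library left out. Depth limits Mir196a-1 most, with 134 and 125 counts, and 2 libraries limit every SD.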
